A study of Mus musculus with 8 samples.

Results

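The purinergic genes of microglia described here are 6 receptors and 1 enzyme for extracellular nucleotides, taken by symbol from the deposited count table. They are P2ry12, P2ry13, P2ry6, P2rx4, P2rx7, Adora3 and Entpd1, 7 of the 35583 genes listed, and each symbol matched 1 row. The libraries were made from microglia, the resident macrophages of the brain, sorted out of the hypothalamus of wild-type mice described as young, taken 20 hours after plasma protein carrying a dye had been injected. They form 4 plasma-negative and 4 plasma-positive libraries. Both groups come from injected mice, there are no uninjected controls among the 8 libraries, and neither shared animals nor the number of mice per library can be read from the labels. P-values therefore measure the spread between these libraries.

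Cells release ATP and ADP when they are active, stressed or damaged, and microglia read these nucleotides through surface receptors. P2Y receptors are coupled to G proteins, P2X receptors are cation channels opened by ATP, and adenosine receptors respond to the nucleoside left once the phosphates have been removed. Ectonucleotidases such as CD39 on the microglial surface carry out the first steps of that breakdown. P2Y12 is widely used as a marker of resting microglia and steers their processes toward sites of injury.

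Total counts ranged from 2963094 (plasma-negative replicate 4) to 21422738, and mean log2 totals differed by 0.31 between the groups (p = 0.8, two-sided, by an exact permutation test over the 8 libraries). In edgeR's quasi-likelihood test with Benjamini-Hochberg adjustment, 187 of 13277 tested genes (1.41%) passed an adjusted p of 0.05, 112 higher (0.844%) and 75 lower (0.565%) in plasma-positive libraries. The split was 64 higher and 163 lower with library totals only, and 388 higher and 59 lower with limma on log2(RPKM + 1). It was 52 and 22 with replicate numbers entered as a block, and 43 and 14 with a correction for exon length and GC content. The microglial markers Cx3cr1, Tmem119, Csf1r, Sall1, Siglech, Fcrls, Gpr34 and Olfml3 were all tested and summed to between 42421 and 49426 CPM. CPM are the usual per-library scaled counts, with TMM factors applied to the library totals. T and NK cell markers were at 0 in 7 of the 8 libraries and border macrophage markers summed to at most 16.5 CPM, with Lyve1, Cd163 and F13a1 at 0 throughout. Markers of monocytes and neutrophils summed to 962 CPM in plasma-positive replicate 3 and to at most 13.8 CPM in every other library. Oligodendrocyte markers summed to between 157 and 230 CPM in plasma-negative and between 222 and 514 CPM in plasma-positive libraries, and neuron markers reached 341 CPM in plasma-positive replicate 2. Astrocyte markers summed to between 208 and 327 CPM and endothelial markers to between 17.8 and 58.7 CPM, with no gene of these lists called. Because the samples are bulk, fewer cells of a type and less RNA per cell cannot be told apart.

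None of the 7 genes passed the test, against 1.41% of all tested genes, and none had an unadjusted p under 0.05, against 13.8%. That last count depended on the setting: 2 of the 7 had an unadjusted p under 0.05 with limma on log2(RPKM + 1) (18% of all tested genes), with the length and GC correction (11%) and without plasma-negative replicate 4 (14.8%), and 1 had with limma-voom (16.9%). All 7 passed the filter on low counts. Their estimates lay between -0.19 (P2rx7) and 0.22 (P2rx4) on the log2 scale, 4 above 0 and 3 below, with a median of 0.05 against 0.0058 over all tested genes. In CPM, the groups overlapped for each of the 7, where 10.3% of tested genes had groups that did not overlap. Taken over the 7 genes, the 95% intervals of the fold difference ran from 0.69 (lower bound for P2rx7) to 1.43 (upper bound for P2rx4). One library bears on this result. Without plasma-negative replicate 4, whose total is the smallest, P2ry12 passed the test as 1 of the 7, where 1.45% of tested genes were called.

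**Figure D1:**
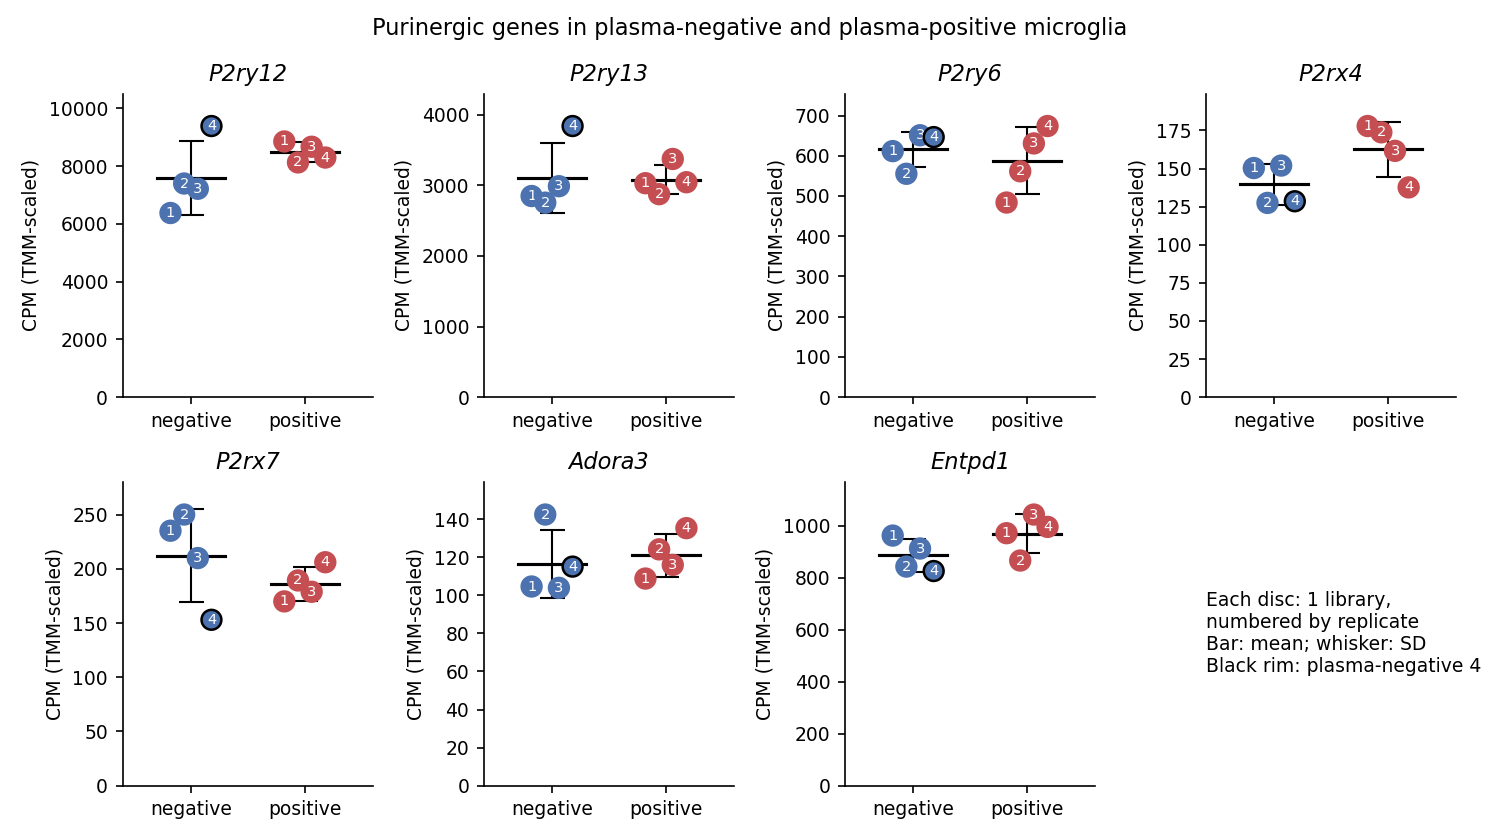
TMM-scaled CPM of each gene in every library (discs, numbered by replicate), with the group mean and SD; axes start at 0. The groups overlap in every panel, and plasma-negative replicate 4 (black rim) is the highest of its group for P2ry12 and P2ry13 and the lowest for P2rx7 and Entpd1.

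P2ry12 and P2ry13 are neighbours. P2ry12 (ENSMUSG00000036353) lies at chr3:59216272-59262871 and P2ry13 (ENSMUSG00000036362) at chr3:59207892-59210882, both on the minus strand, in the deposited coordinates, which match GENCODE M21 on GRCm38. Both lie inside Med12l, a gene of the Mediator complex on the plus strand. P2rx7 (ENSMUSG00000029468) at chr5:122643911-122691432 and P2rx4 (ENSMUSG00000029470) at chr5:122707544-122729738 also lie next to each other, both on the plus strand. RefSeq start sites on GRCm38.p6 were listed for 6 of the 7 genes, with 8 entries. The 250 bases before the start are shown for these neighbouring pairs, because their members sit side by side in the genome and are compared with each other below. Capitals mark GAGGAA or its reverse complement TTCCTC, the core of the box bound by PU.1, a transcription factor that microglia need to form. For P2rx7 the first of its 2 listed starts is shown, and the window of the second, chr5:122650133-122650382, held no such letters.
P2ry12 (chr3:59262986-59263235, minus strand): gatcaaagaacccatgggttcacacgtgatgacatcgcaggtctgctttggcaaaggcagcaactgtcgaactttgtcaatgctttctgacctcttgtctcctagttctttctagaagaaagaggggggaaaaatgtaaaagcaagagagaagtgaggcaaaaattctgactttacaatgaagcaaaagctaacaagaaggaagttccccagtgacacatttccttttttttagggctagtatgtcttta
P2ry13 (chr3:59210883-59211132, minus strand): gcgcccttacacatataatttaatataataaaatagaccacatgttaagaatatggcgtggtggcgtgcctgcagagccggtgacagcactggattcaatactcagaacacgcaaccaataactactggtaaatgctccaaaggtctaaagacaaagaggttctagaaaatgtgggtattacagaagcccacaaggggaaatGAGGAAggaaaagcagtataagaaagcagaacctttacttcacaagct
P2rx4 (chr5:122707294-122707543, plus strand): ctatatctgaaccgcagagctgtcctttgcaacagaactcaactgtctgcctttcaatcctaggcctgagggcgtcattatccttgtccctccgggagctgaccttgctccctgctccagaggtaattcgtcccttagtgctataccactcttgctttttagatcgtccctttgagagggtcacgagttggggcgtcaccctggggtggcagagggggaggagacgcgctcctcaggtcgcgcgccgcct
P2rx7 (chr5:122643677-122643926, plus strand): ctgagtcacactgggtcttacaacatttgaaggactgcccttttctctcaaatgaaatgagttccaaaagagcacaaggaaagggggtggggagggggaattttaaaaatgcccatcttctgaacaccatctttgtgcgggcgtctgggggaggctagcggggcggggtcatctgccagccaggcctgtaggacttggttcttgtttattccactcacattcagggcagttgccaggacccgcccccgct
Of these 4 windows only that of P2ry13 held the letters searched for, beginning 48 bases before the start site. Among all 8 entries the motif was also present before Adora3 and before the second of the 2 starts of Entpd1. Of all 32851 windows of this length 23.3% held it on either strand. A match, or the lack of one, is a description of these 6 letters and not evidence about binding.

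Per length of exon, P2ry12 was the most abundant of the genes in each library. RPKM, the deposited read count scaled to exon length and library size, averaged 2183 ± 401 among the plasma-negative and 2659 ± 121 among the plasma-positive libraries (SD, n = 4), and its mean over the 8 libraries ranked 13 among the 13277 tested genes. P2ry13 followed at 900 ± 160 and 972 ± 68.4 RPKM and ranked 30. P2ry6 came next, with 138 to 168 RPKM in plasma-negative and 134 to 181 RPKM in plasma-positive libraries, before Entpd1 at 116 ± 7.86 and 138 ± 9.77 RPKM. These 2 were separate in plasma-negative libraries, but their ranges overlapped in plasma-positive libraries, where P2ry6 was the higher in 3 of 4. P2rx7, at 25.9 ± 4.90 and 24.9 ± 1.76 RPKM, and Adora3, at 22.8 ± 3.38 and 25.9 ± 2.12 RPKM, had overlapping ranges in either group, with P2rx7 the higher in 3 of 4 plasma-negative libraries and Adora3 the higher in all 4 plasma-positive ones. P2rx4 was the lowest in every library, at 14.5 ± 1.34 and 18.5 ± 2.38 RPKM (SD, n = 4 for each mean). The metabotropic ADP receptors thus had higher RPKM than the ATP-gated channels, with P2ry12 2.43-fold above P2ry13 and P2ry13 5.77-fold above P2ry6 in plasma-negative means.

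**Figure D2:**
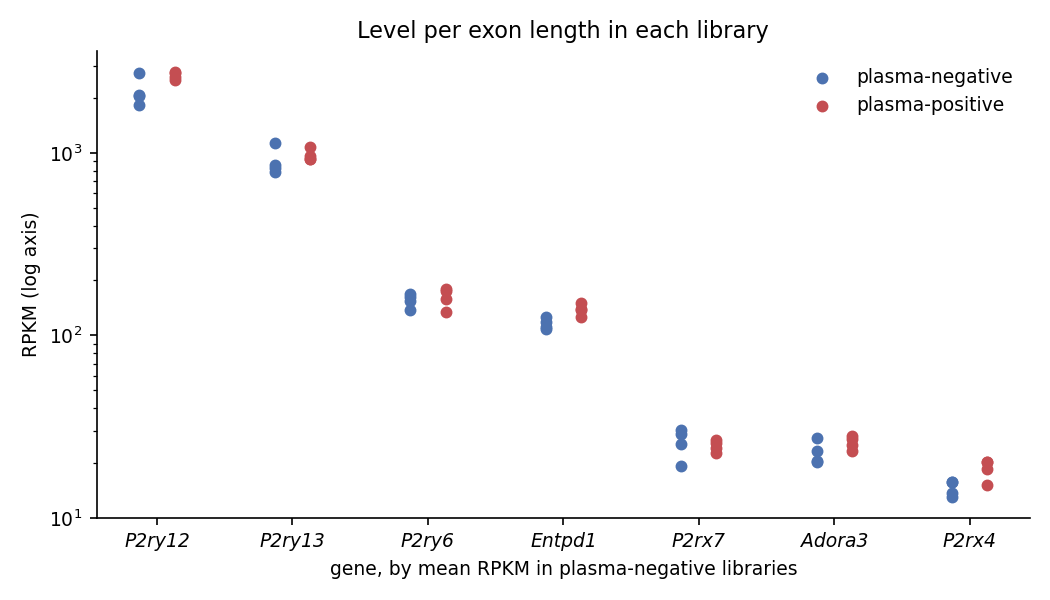
Deposited RPKM of the 7 genes in each of the 8 libraries, on a log axis, ordered by the plasma-negative mean. P2ry12 lies above P2ry13 in every library, and the ranges of P2rx7 and Adora3 overlap in both groups.

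P2ry12 encodes the Gi-coupled ADP receptor that directs microglial processes. It had 6375, 7396, 7213 and 9385 CPM in plasma-negative replicates 1 to 4 and 8850, 8126, 8668 and 8295 CPM in plasma-positive replicates 1 to 4. Plasma-negative replicate 4 was the highest of all 8, and the other 3 plasma-negative libraries were the 3 lowest. P2ry12 had a log2 change of 0.16, SE 0.09 and a 95% interval of -0.04 to 0.36 (edgeR, adjusted p = 0.493). The spread was unequal, with a coefficient of variation of 16.8% among plasma-negative and 3.92% among plasma-positive libraries, and much of the first came from replicate 4. Without it the 3 other plasma-negative libraries averaged 6978 ± 558 CPM (SD, n = 3). Without plasma-negative replicate 4, all 4 plasma-positive libraries lay above the 3 remaining plasma-negative ones, as they did for 8.31% of tested genes. The log2 change was then 0.28, with a 95% interval of 0.16 to 0.40 (edgeR, adjusted p = 0.0367), where 0.901% of tested genes were called higher. Leaving out each of the other 7 libraries gave no call. With the length and GC correction the log2 change was 0.28, and with limma on log2(RPKM + 1) it was 0.30 (adjusted p = 0.259 in edgeR and 0.146 in limma), in a fit where the median of all tested genes was 0.11. With library totals only it was 0.05 (edgeR, adjusted p = 0.857).

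**Figure D3:**
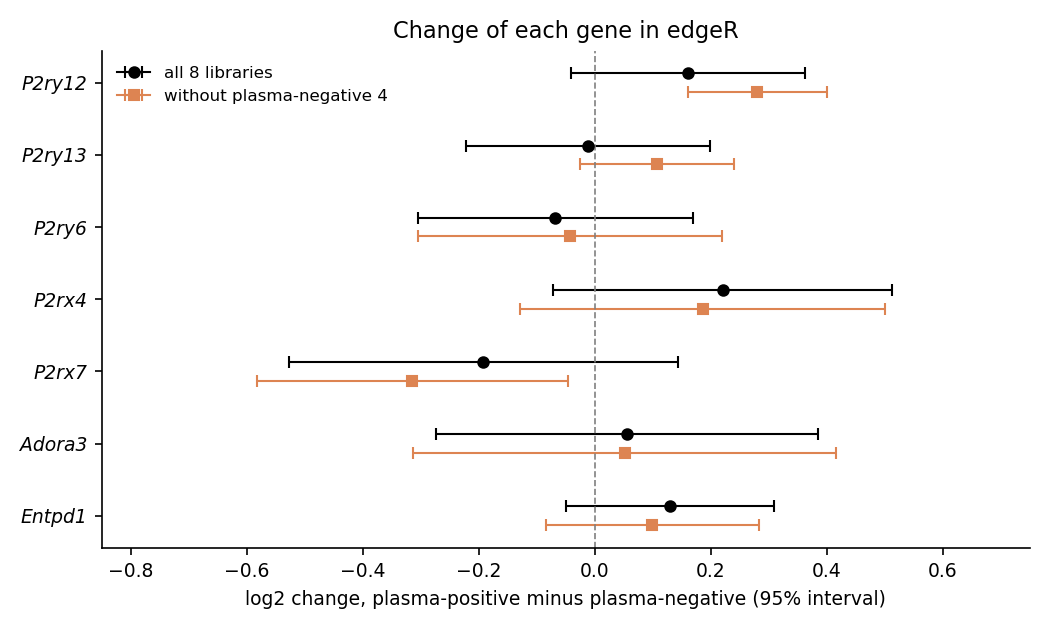
Log2 change of each gene (plasma-positive minus plasma-negative) with its 95% interval in edgeR, from all 8 libraries (black) and from 7 libraries without plasma-negative replicate 4 (orange). With all 8 every interval includes 0; with 7, those of P2ry12 and P2rx7 do not, and of these P2ry12 alone passed the adjusted test.

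The summed microglial markers, like P2ry12, were highest of the plasma-negative group in replicate 4. Their sum was 42989, 42421, 42974 and 46860 CPM in plasma-negative replicates 1 to 4 and 48764, 46209, 49123 and 49426 CPM in plasma-positive replicates 1 to 4. Plasma-negative replicate 4 lay within the plasma-positive range. Of these 8 markers, Csf1r and Olfml3 were called higher in plasma-positive libraries and none lower (edgeR), where 0.844% of tested genes were called higher. Cx3cr1 went the other way, with all plasma-positive CPM values below all plasma-negative ones, as for 4.59% of tested genes. Its log2 change was -0.11 (edgeR, adjusted p = 0.232). The sum is therefore not a fixed reference. As a percentage of that sum in the same library, P2ry12 made up 14.8, 17.4, 16.8 and 20.0 in plasma-negative and 18.1, 17.6, 17.6 and 16.8 in plasma-positive replicates 1 to 4. The mean log2 difference of this ratio was 0.03, and 0.10 without plasma-negative replicate 4, against 0.28 for P2ry12 alone in the fit without that library. Cmtm6 was among the genes with the most similar course over the 8 libraries among 7530 genes of at least 16 CPM. The root mean square difference of its centred log2 CPM from that of P2ry12 was 0.06, while P2ry12 itself varied by 0.17. The share of all counts taken by the 7 genes was 1.51% in plasma-negative replicate 4 and between 1.19% and 1.36% in the other libraries. Platelets also carry P2Y12. Of 3 platelet markers Ppbp was at 0 in all libraries and Itga2b was at 0 in all plasma-positive libraries. Gp9, also a platelet gene, had 29.1 to 55.7 CPM in plasma-negative and 71.9 to 93.6 CPM in plasma-positive libraries, with no overlap, as for 5.68% of tested genes with plasma-positive libraries above (edgeR, adjusted p = 0.138). The part of these markers and of depth in the P2ry12 values was not tested.

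**Figure D4:**
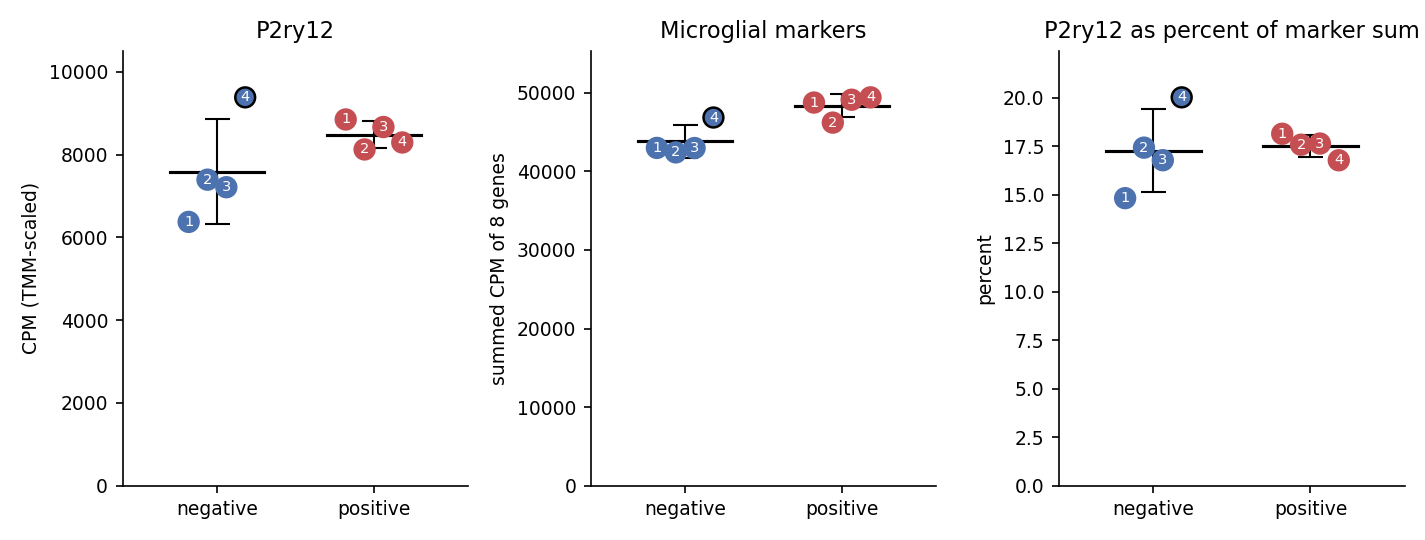
P2ry12 (TMM-scaled CPM), the summed CPM of 8 microglial markers, and P2ry12 as a percentage of that sum, by library, with group mean and SD; axes start at 0. In the first and second panels plasma-negative replicates 1 to 3 lie below all plasma-positive libraries and replicate 4 (black rim) does not; in the third the groups overlap with or without it.

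P2ry13, a second ADP receptor coupled to Gi, had 2847, 2753, 2986 and 3838 CPM in plasma-negative and 3029, 2873, 3372 and 3043 CPM in plasma-positive replicates 1 to 4. Plasma-negative replicate 4 was again the highest of the 8 libraries. P2ry13 had a log2 change of -0.01, SE 0.10 (edgeR, adjusted p = 0.974, 95% interval -0.22 to 0.20), and 0.11 without that library (edgeR, adjusted p = 0.464). The count of P2ry12 per count of P2ry13, which needs no scaling between libraries, was 2.24, 2.69, 2.42 and 2.45 in plasma-negative and 2.92, 2.83, 2.57 and 2.73 in plasma-positive replicates 1 to 4. The ranges overlapped only because plasma-negative replicate 2 (2.69) lay above plasma-positive replicate 3 (2.57). Med12l, which spans both genes on the other strand, had 107 to 139 CPM in plasma-negative and 60.9 to 85.6 CPM in plasma-positive libraries. Its groups did not overlap, as for 4.59% of tested genes with plasma-positive libraries below. Its log2 change was -0.69 and missed the threshold (edgeR, adjusted p = 0.0596), and it was called with library totals only and with DESeq2 (adjusted p = 0.0323 and 0.00065). With the length and GC correction the change was -0.37 (edgeR, adjusted p = 0.44), with limma on log2(RPKM + 1) it was -0.49 (limma, adjusted p = 0.247), and with the replicate block its edgeR adjusted p was 0.132. Exons of Med12l overlapped 0.35% of the exon length of P2ry12 and none of that of P2ry13. Med12l shared 15.3% of its own exon length with Igsf10, which lies on the opposite strand, and the treatment of strand is not given. Igsf10, a neighbour of Med12l, had a log2 change of -0.44 (edgeR, adjusted p = 0.781). The nearby receptor gene Gpr171 was at 0 counts in all libraries, and P2ry14 was at 0 in all plasma-negative libraries and reached 69 counts in a plasma-positive one.

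P2ry6 (ENSMUSG00000048779, chr7:100937630-100974649) encodes the receptor for UDP that is known for its link to phagocytosis. It had 612, 555, 651 and 646 CPM in plasma-negative and 484, 561, 631 and 674 CPM in plasma-positive replicates 1 to 4. The lowest and the highest of the 8 values were both plasma-positive. The estimated log2 change was -0.07 with an SE of 0.11 (edgeR, adjusted p = 0.858, 95% interval -0.31 to 0.17). It was -0.26 with the length and GC correction and -0.18 with library totals only (edgeR, adjusted p = 0.414 and 0.499). P2ry2, a receptor for ATP and UTP beside P2ry6 on chromosome 7, was near the limit of detection in some libraries, with 0 to 116 counts (log2 change 0.52, SE 1.48; edgeR, adjusted p = 0.925).

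P2rx7 encodes the ATP-gated channel that opens at high ATP and leads to inflammasome activation. It had 235, 250, 210 and 153 CPM in plasma-negative and 170, 189, 179 and 206 CPM in plasma-positive replicates 1 to 4. Replicates 1 to 3 of the plasma-negative group were the 3 highest libraries and replicate 4 was the lowest. P2rx7 had a log2 change of -0.19, SE 0.15 (edgeR, adjusted p = 0.653, 95% interval -0.53 to 0.14). It was -0.31 with library totals only (edgeR, adjusted p = 0.429) and -0.04 with limma on log2(RPKM + 1) (limma, adjusted p = 0.923). Without plasma-negative replicate 4 the change was -0.31, with a 95% interval of -0.58 to -0.05, and the groups did not overlap, as for 7.82% of tested genes with plasma-positive libraries below (edgeR, adjusted p = 0.25). That library held 455 counts of P2rx7, the fewest of the 8. Without plasma-negative replicate 2 the change was -0.10 (edgeR, adjusted p = 0.869), and these were the ends of the range over the 8 fits that left out 1 library.

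P2rx4, the ATP-gated channel beside it that is also found in lysosomes, had 150, 127, 152 and 129 CPM in plasma-negative and 178, 174, 162 and 138 CPM in plasma-positive replicates 1 to 4. Plasma-positive replicates 1 to 3 lay above all plasma-negative libraries and replicate 4 lay among them. P2rx4 had a log2 change of 0.22, SE 0.13 (edgeR, adjusted p = 0.521, 95% interval -0.07 to 0.51), and of 0.10 with library totals only (edgeR, adjusted p = 0.817). The count of P2rx4 per count of P2rx7 was 0.639, 0.509, 0.723 and 0.840 in plasma-negative and 1.05, 0.917, 0.903 and 0.667 in plasma-positive replicates 1 to 4. The 3 highest ratios were plasma-positive, but replicate 4 of that group fell inside the plasma-negative range. Camkk2, a kinase gene on the far side of P2rx4, had a log2 change of 0.12 (edgeR, adjusted p = 0.924).

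Entpd1 encodes CD39, which removes phosphates from ATP and ADP, and lies at chr19:40612366-40741602 (ENSMUSG00000048120). It had 961, 842, 912 and 825 CPM in plasma-negative and 971, 865, 1042 and 995 CPM in plasma-positive replicates 1 to 4. Of the 4 plasma-positive libraries 3 lay above all plasma-negative ones. The log2 change was 0.13 with an SE of 0.08 (edgeR, adjusted p = 0.54, 95% interval -0.05 to 0.31). In RPKM the groups did not overlap, with 126.2 as the lowest plasma-positive and 125.9 as the highest plasma-negative value, as for 8.47% of tested genes with plasma-positive libraries above (3.04% had them below). On that scale the tested genes as a whole were shifted, with a median log2 change of 0.11 over tested genes in limma on log2(RPKM + 1), where Entpd1 had a log2 change of 0.25 (limma, adjusted p = 0.158). With library totals only it was 0.01 (edgeR, adjusted p = 0.975). The gene closest to Entpd1 in its course over the 8 libraries was Tmem119, a marker of microglia, with a root mean square difference of 0.06, while Entpd1 itself varied by 0.11.

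Adora3, the Gi-coupled adenosine A3 receptor, had 105, 142, 104 and 115 CPM in plasma-negative and 109, 124, 116 and 135 CPM in plasma-positive replicates 1 to 4. The highest and the lowest library were both plasma-negative. The estimated log2 change was 0.05 with an SE of 0.15 (edgeR, adjusted p = 0.924, 95% interval -0.27 to 0.38). Its row (ENSMUSG00000000562, chr3:105870858-105908926) shares 20.9% of its exon length with Tmigd3 on the same strand, so reads of these genes cannot be fully separated. Tmigd3 had a log2 change of 0.23 (edgeR, adjusted p = 0.752).

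The other nearest courses, on the same measure, were Sgk1 and Cct3 for P2ry13, and Hps4 and Selenos for P2ry6. They were Ap2m1 and Ybx1 for P2rx4, Cox14 and Cope for P2rx7, Tnks2 and Msn for Adora3, and Tuba1b for Entpd1. The root mean square differences were between 0.04 (Ap2m1) and 0.10 (Msn), while the members themselves varied by 0.11 to 0.22. With 8 libraries and 7530 genes to choose from, such nearness is a description.

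Among 62 other genes of purinergic signalling in the table, 42 were tested, and 3 were called, all higher in plasma-positive libraries, where 0.844% of all tested genes were called higher. Their median log2 change was 0.03. Gnai2, the inhibitory G protein alpha subunit to which P2Y12, P2Y13 and A3 receptors couple, had 1011 to 1079 CPM in plasma-negative and 1212 to 1425 CPM in plasma-positive libraries. It rose by 0.34 on the log2 scale, with an SE of 0.07 (edgeR, adjusted p = 0.0335). Rac2, a small GTPase of the actin cytoskeleton in blood and immune cells, had 147 to 177 CPM against 228 to 258 CPM and rose by 0.53 with an SE of 0.11 (edgeR, adjusted p = 0.043). Tmem176b, a membrane protein known to restrain the NLRP3 inflammasome, had 725 to 844 CPM against 1092 to 1421 CPM and rose by 0.63 with an SE of 0.09 (edgeR, adjusted p = 0.00801). With replicate numbers as a block Tmem176b was the 1 gene of the 62 still called (edgeR, adjusted p = 0.0259), while the changes of Gnai2 and Rac2 stayed at 0.34 and 0.53 (edgeR, adjusted p = 0.0817 and 0.131), and with the length and GC correction none was. Gnai2, Rac2 and Tmem176b then had log2 changes of 0.19, 0.34 and 0.43 (edgeR, adjusted p = 0.385, 0.294 and 0.0981). Across the 5200 genes of at least 32 CPM, Spearman's correlation between exon length and log2 change was -0.457, which describes these libraries since genes are not independent.

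**Figure D5:**
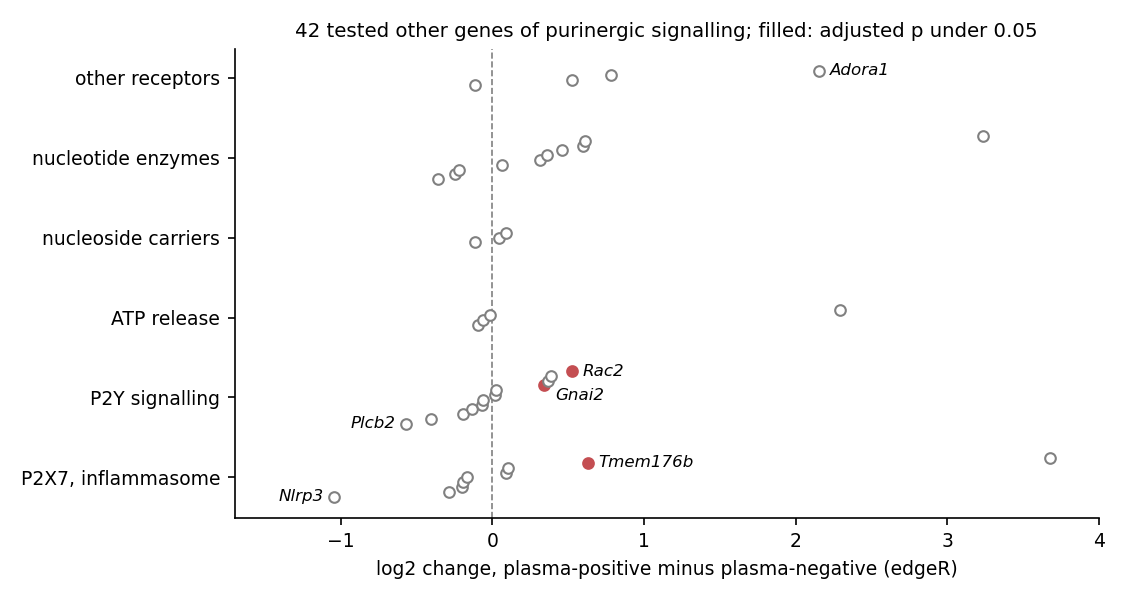
Log2 change (plasma-positive minus plasma-negative, edgeR) of the 42 tested other genes of purinergic signalling, in 6 groups; filled points passed an adjusted p of 0.05. The 3 filled points (Gnai2, Rac2, Tmem176b) lie to the right of 0, and the open points beyond 2 are genes of low counts such as Adora1.

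None of the 14 other receptors, of which 4 passed the filter on low counts, was called. P2rx1, named after its values were seen, had 9.63 to 18.8 CPM in plasma-negative and 19.9 to 31.6 CPM in plasma-positive libraries, a log2 change of 0.78 (edgeR, adjusted p = 0.346). Adora1, named likewise, had 0 to 3.61 against 3.57 to 15.4 CPM (log2 change 2.15, SE 0.96; edgeR, adjusted p = 0.342). P2ry10b, also named after its values were seen, had 17.4 to 51.8 against 26.6 to 48.2 CPM (log2 change -0.12, SE 0.35; edgeR, adjusted p = 0.931). P2ry4, P2ry10, P2rx2 and Adora2a were listed at 0 counts in all 8 libraries. None of the 17 enzymes of nucleotide turnover was called, with 10 tested. Entpd2, Entpd3 and Entpd8, the other surface enzymes of the CD39 family, were at 0 counts throughout, and Nt5e, which makes adenosine from AMP, had at most 9 counts in any library. Ak1, an adenylate kinase named after its values were seen, had a log2 change of 0.61 with no overlap between groups (edgeR, adjusted p = 0.168), where 5.68% of tested genes had all plasma-positive libraries above. Ak1 was called in 1 of 20 alternatives, limma on log2(RPKM + 1), at 0.68 (limma, adjusted p = 0.0498), and had 0.41 with the length and GC correction (edgeR, adjusted p = 0.475).

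Of 6 nucleoside carriers 3 were tested and none was called. Slc29a3, the lysosomal carrier, had 762 ± 40.7 and 811 ± 85.7 CPM, and Slc29a1, the main surface carrier, had 310 ± 50.4 and 286 ± 42.6 CPM (SD, n = 4). Their log2 changes were 0.09 and -0.11 (edgeR, adjusted p = 0.732 and 0.793). None of 4 genes of ATP release was called.

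Of 12 genes of signalling downstream of P2Y receptors, all tested, 2 were called (Gnai2 and Rac2), where 0.844% of all tested genes were called higher. As given above, neither was called with the replicate block or with the length and GC correction. Gnb1, a G protein beta subunit, had a log2 change of 0.39 (edgeR, adjusted p = 0.186). Kcnk13, the THIK-1 potassium channel that acts with P2Y12 in microglia, had 239 ± 21.8 and 244 ± 25.6 CPM, and Orai1, a calcium entry channel, had 414 to 454 against 417 to 452 CPM (SD, n = 4 for Kcnk13). Their log2 changes were 0.03 and 0.02 (edgeR, adjusted p = 0.954 and 0.959). Plcb2, a phospholipase named after its values were seen, had 49.8 to 70.3 against 30.2 to 43.5 CPM, with a log2 change of -0.57 (edgeR, adjusted p = 0.252), where 4.59% of tested genes had all plasma-positive libraries below.

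Of 9 genes linked to P2X7 and the inflammasome, all tested, 1 was called (Tmem176b), where 0.844% of all tested genes were called higher. Nlrp3, the sensor protein, named after its values were seen, had 36.9, 25.9, 46.7 and 46.4 CPM in plasma-negative and 16.2, 16.7, 17.2 and 25.5 CPM in plasma-positive replicates 1 to 4. All plasma-positive CPM values lay below all plasma-negative ones, as for 4.59% of tested genes, but in RPKM the groups overlapped, with 4.59 as the lowest plasma-negative and 4.86 as the highest plasma-positive value. The log2 change of -1.04 with an SE of 0.30 missed the threshold in edgeR (adjusted p = 0.119) and in 19 of 20 alternatives. It passed in DESeq2 alone (adjusted p = 0.00976), which called 963 genes in all. Pycard, the adaptor of the inflammasome, had 449 ± 40.3 and 400.2 ± 25.7 CPM (SD, n = 4), a log2 change of -0.17 (edgeR, adjusted p = 0.496).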

How the data were processed

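Bulk RNA sequencing libraries of sorted microglia (4 plasma-negative and 4 plasma-positive, by title) were made with Smart-seq2, per the labels' protocols. The deposited counts are whole reads per gene, with column names in the file headers that mention top hits only, and the deposited RPKM values are scaled to exon length and library size by the authors. The submitters' processing notes name bcl2fastq, Trim Galore, STAR, HTSeq and build mm10. Versions and the treatment of strand and multi-mapping reads are not given in the sources used here. Smart-seq2 carries no molecular identifiers, so counts are not independent molecules. Total counts ranged from 2963094 to 21422738. The 7 genes had 342 or more counts in every library, and how much of their spread is counting error was not tested. The standard deviation columns, which hold only 0 in the count table, were not used (8 in each table). Of 35583 identifiers, 35546 were in GENCODE M21, which gave exon length, GC content and overlaps.

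For the test, all genes' counts went into edgeR 4.0.16 (R 4.3.3, TMM, default expression filter by group, quasi-likelihood F test of group), with Benjamini-Hochberg adjustment over all tested genes and calls at 0.05. Each SE was obtained from the F statistic and the change, and intervals are 95% from its t distribution. The test was checked on simulated counts with large changes and the same spread setting for every gene. That check does not show how the test performs on small changes or unequal spread, as found here. CPM are counts scaled with TMM factors, and logs took a prior count of 2. The 7 genes and the lists were chosen with earlier results of these data known. Named are the 7 genes, genes next to them, called genes and the 8 with the highest mean RPKM among the other purinergic genes, and the 2 genes nearest in course to each of the 7. Alternatives were other factors and filters, DESeq2 1.42.0, limma 3.58.1 (voom with quality weights, and log2 of RPKM plus 1 or 0.1), the replicate block, a loess correction per library for exon length and GC content (span 0.3), and leaving out each library. Replicate numbers come from the titles alone. The labels do not tie a number to a shared animal, so the numbers were not used as pairs in the main design. Log2 CPM deviations of same-numbered libraries had a mean correlation of 0.011 over genes, against -0.0038 for other pairs. For 2 of the plasma-negative libraries the best correlation was with their own number. These values cannot show whether animals were shared. Items withheld from this work are not reported here and were left out of the marker and neighbour lists. Acp3 had no row under that symbol and was not analysed here.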

Additional observations from a re-analysis of the deposited data

Results flagged for a closer look

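Each of 54 groups of 4 libraries was searched for a value far from the other 3, where chance gives about 5%, and 4 were found. Plasma-negative replicate 4 had 46860 CPM of summed microglial markers, against 42989 CPM in the nearest other plasma-negative library, and 385 CPM of Slc29a1, against 291 CPM. Plasma-positive replicate 4 had 25.5 CPM of Nlrp3, against 17.2 CPM in the nearest other, on the side of the plasma-negative group. Plasma-positive replicate 2 had 17.8 CPM of Igsf10, against 12.5 CPM. None of the 7 purinergic genes had such a value, though plasma-negative replicate 4 was the highest or lowest of its group for 4 of them.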

How the results depend on the processing

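In 19 of 20 alternatives no member was called, and of 140 member values 126 kept direction and side of the threshold. The count of members called was 0 to 1 when each library was left out, the 1 being P2ry12 without plasma-negative replicate 4, whose changes over the 8 left-out fits ran from 0.086 to 0.28. Estimates near 0 changed sign. Adora3 was at -0.060 with library totals only, -0.033 with the length and GC correction, -0.028 with that correction and the replicate block, and -0.00074 to 0.17 when a library was left out. P2ry13 was at 0.012 with upper-quartile factors, 0.033 with limma-voom, 0.12 with limma on log2(RPKM + 1) and also with log2(RPKM + 0.1), and -0.064 to 0.11 when a library was left out. P2ry6 was at 0.049 in both RPKM fits, -0.26 with the length and GC correction, -0.27 with that correction and the block, and at -0.14 to 0.016 when a library was left out. Those RPKM fits had a median change of all genes of 0.11 and 0.16, and library totals only had -0.11.

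All genes called were 187 in the main design, 963 with DESeq2, 447 and 432 with RPKM plus 1 and plus 0.1, 74 with the replicate block, 57 with the length and GC correction, 11 with that correction and the block, and 66 to 203 when a library was left out. Other purinergic genes called were 3, and 1 each with relative log expression factors, library totals only, no filter and the replicate block. There were 0 with the length and GC correction with or without the block. DESeq2 called 4 (3 higher and 1 lower), and limma on log2(RPKM + 1) called 4, all higher. Between 1 and 4 were called when a library was left out, the 4 (3 higher and 1 lower) being without plasma-negative replicate 4. In those 8 fits Tmem176b passed 8 times, Gnai2 2 times and Rac2 1 time. The block changed no call of a member.

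Among the other named genes, Orai1 turned to -0.0069 with relative log expression factors, -0.098 with library totals only, -0.0042 with DESeq2 and -0.17 with the length and GC correction with or without the block. Kcnk13 turned to -0.087 with library totals only and -0.16 with that correction with or without the block, Slc29a3 to -0.026 with library totals only, Slc29a1 to 0.010 in both RPKM fits, and Igsf10 to 0.093 with the correction and the block. When a library was left out, ranges were -0.0017 to 0.046 for Orai1, -0.047 to 0.078 for Kcnk13, -0.21 to 0.0070 for Slc29a1, -0.73 to 0.21 for Igsf10, -0.067 to 0.45 for Camkk2 and -0.13 to 1.22 for P2ry2. The causes were not tested. P2ry2 had 0 counts in 2 libraries, among them the deepest.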
